A study of Mus musculus with 16 samples.

Results

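The genes described here are interferon-stimulated genes of the mouse lung, taken as a list of 40 gene symbols, with every array probe annotated to 1 of them. Of the 40, 37 had at least 1 probe (58 probes in all), and 32 had a probe bright enough to test (47 probes), out of 16593 genes with a probe and 12648 genes tested on the whole array. Ifi44, Dtx3l and Herc6 were named by no probe and are not analysed here. Ifit1, Oas1a, Parp9, Iigp1 and Xaf1 had a probe that was too dim to test. Where a gene had several probes, the tested probe with the highest mean over all arrays stands for it. Lung RNA of 16 mice, all female and of strain C57BL/6N, was measured on Illumina bead arrays, with each mouse on an array of its own. There were 4 groups of 4 mice: Prdm11 knockouts challenged with ovalbumin (OVA), challenged wild types, untreated Prdm11 knockouts and untreated wild types. Prdm11 encodes a PRDM family protein, and the knockout allele is not described in the sources used here. Challenged mice were 35 weeks old, had been given 10 µg OVA with 2 mg of the adjuvant alum by intraperitoneal injection, and later inhaled a 1% OVA aerosol for 30 min on 3 occasions, a protocol that provokes allergic inflammation of the airways. Untreated mice of both genotypes were 22 weeks old and carry no treatment in the labels, which do not say whether they had been sensitised. Age and challenge therefore cannot be told apart in any comparison of challenged with untreated mice.

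Interferons are secreted when cells detect viral or other foreign nucleic acid, or, for interferon gamma, when T cells and natural killer cells are activated. Type I interferons act through the receptor Ifnar1/Ifnar2 to activate a transcription factor complex that includes Stat2 and Irf9 and binds a DNA element called ISRE, whereas interferon gamma acts mainly at an element called GAS. The induced genes encode enzymes that detect or degrade viral RNA, proteins that block viral entry or budding, guanosine triphosphatases (GTPases) that attack vacuoles holding pathogens, and the machinery that loads peptides onto MHC class I. In the lung, epithelial cells, endothelial cells and leukocytes can all induce such genes.

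The stretches of DNA upstream of 5 of the genes are shown because these genes carry the differences described further on and include both directions. Each is the 250 bases before the RefSeq transcription start in GRCm38.p6, given 5′ to 3′ on the strand of the gene, with matches to the ISRE letters in capitals, that is GAAA, any 2 bases and GAAA again, or TTTC, any 2 bases and TTTC for the other strand. Rsad2 (chr12:26456453-26456702, minus strand) rose with challenge in wild types, and Cmpk2 (chr12:26468965-26469214, plus strand), its neighbour in the RefSeq gene order, fell there. Ifit3 (chr19:34583279-34583528, plus strand) also fell, Tap1 (chr17:34187306-34187555, plus strand) rose, and Isg15 (chr4:156200819-156201068, minus strand) was higher in challenged knockouts than in challenged wild types.
Rsad2: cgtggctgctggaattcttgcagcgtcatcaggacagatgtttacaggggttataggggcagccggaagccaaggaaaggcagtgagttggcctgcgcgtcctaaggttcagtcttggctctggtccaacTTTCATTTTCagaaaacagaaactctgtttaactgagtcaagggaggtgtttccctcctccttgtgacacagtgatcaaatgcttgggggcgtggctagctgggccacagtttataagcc
Cmpk2: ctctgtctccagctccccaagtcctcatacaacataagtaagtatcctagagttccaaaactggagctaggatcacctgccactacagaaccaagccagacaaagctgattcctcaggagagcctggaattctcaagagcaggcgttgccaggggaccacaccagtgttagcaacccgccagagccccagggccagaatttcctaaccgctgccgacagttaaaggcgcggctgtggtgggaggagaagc
Ifit3: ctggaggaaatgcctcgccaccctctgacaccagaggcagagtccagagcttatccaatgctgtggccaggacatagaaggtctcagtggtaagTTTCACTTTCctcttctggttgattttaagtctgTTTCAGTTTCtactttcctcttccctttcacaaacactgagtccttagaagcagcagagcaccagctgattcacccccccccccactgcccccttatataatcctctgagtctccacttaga
Tap1: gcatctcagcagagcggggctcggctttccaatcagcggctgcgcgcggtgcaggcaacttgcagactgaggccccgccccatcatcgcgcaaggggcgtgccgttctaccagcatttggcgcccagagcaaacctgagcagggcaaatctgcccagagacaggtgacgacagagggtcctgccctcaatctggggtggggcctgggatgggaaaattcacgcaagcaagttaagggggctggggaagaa
Isg15: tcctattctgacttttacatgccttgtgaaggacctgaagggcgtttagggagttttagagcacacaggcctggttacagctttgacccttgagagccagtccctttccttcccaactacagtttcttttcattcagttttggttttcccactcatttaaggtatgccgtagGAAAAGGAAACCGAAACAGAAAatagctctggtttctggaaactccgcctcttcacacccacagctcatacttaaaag
Rsad2 has 1 match, which starts 120 bases before the transcription start. Ifit3 has 2, starting 156 and 122 bases before it, and Isg15 has 3 that overlap each other, starting 78, 72 and 66 bases before it. The windows of Cmpk2 and Tap1 hold none, which says only that these letters are not in these 250 bases. Among the 31 listed genes with a window, 14 (45.2%) held the ISRE letters, against 936 of 27025 genes of the RefSeq promoter table (3.46%). The GAS letters TTCNNNGAA, which read the same on both strands, were in 6 of the 31 (19.4%), against 2197 of 27025 (8.13%).

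Values are log2 intensities of a probe, and brightness is compared between mice for the same probe only. The 40th percentile of each array, at a log2 intensity of 6.24 to 6.25, was taken as a gauge of background. Of the 32 tested genes, 28 lay above it on all 16 arrays. The exceptions were Isg15 on 6 arrays, all from knockout mice, Rtp4 on 9, and Oas3 and Bst2 on 15 each. Array medians ran from 85.4 to 86.5 in linear intensity. No probe was named Prdm11, so the knockout itself rests on the labels. All 5 markers of lung epithelium (Sftpc, Sftpb, Sftpa1, Scgb1a1 and Ager) were above the 40th percentile in every mouse. Challenged wild type replicate 4 stood apart, with correlations of 0.751 to 0.884 with the other arrays over all 25697 probes, where the lowest between 2 other arrays was 0.910. On that array 11 of the 32 genes had their lowest value of all 16 mice and 4 their highest. Without it the same 9 listed genes were called for challenge in wild types and the same 3 for the interaction, and between challenged genotypes Ifitm2 was added to the 11 called. Differences that moved by over 1.5 times or changed sign without it are given beside the main value where they exceed 0.1 on the log2 scale.

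**Figure D1:**
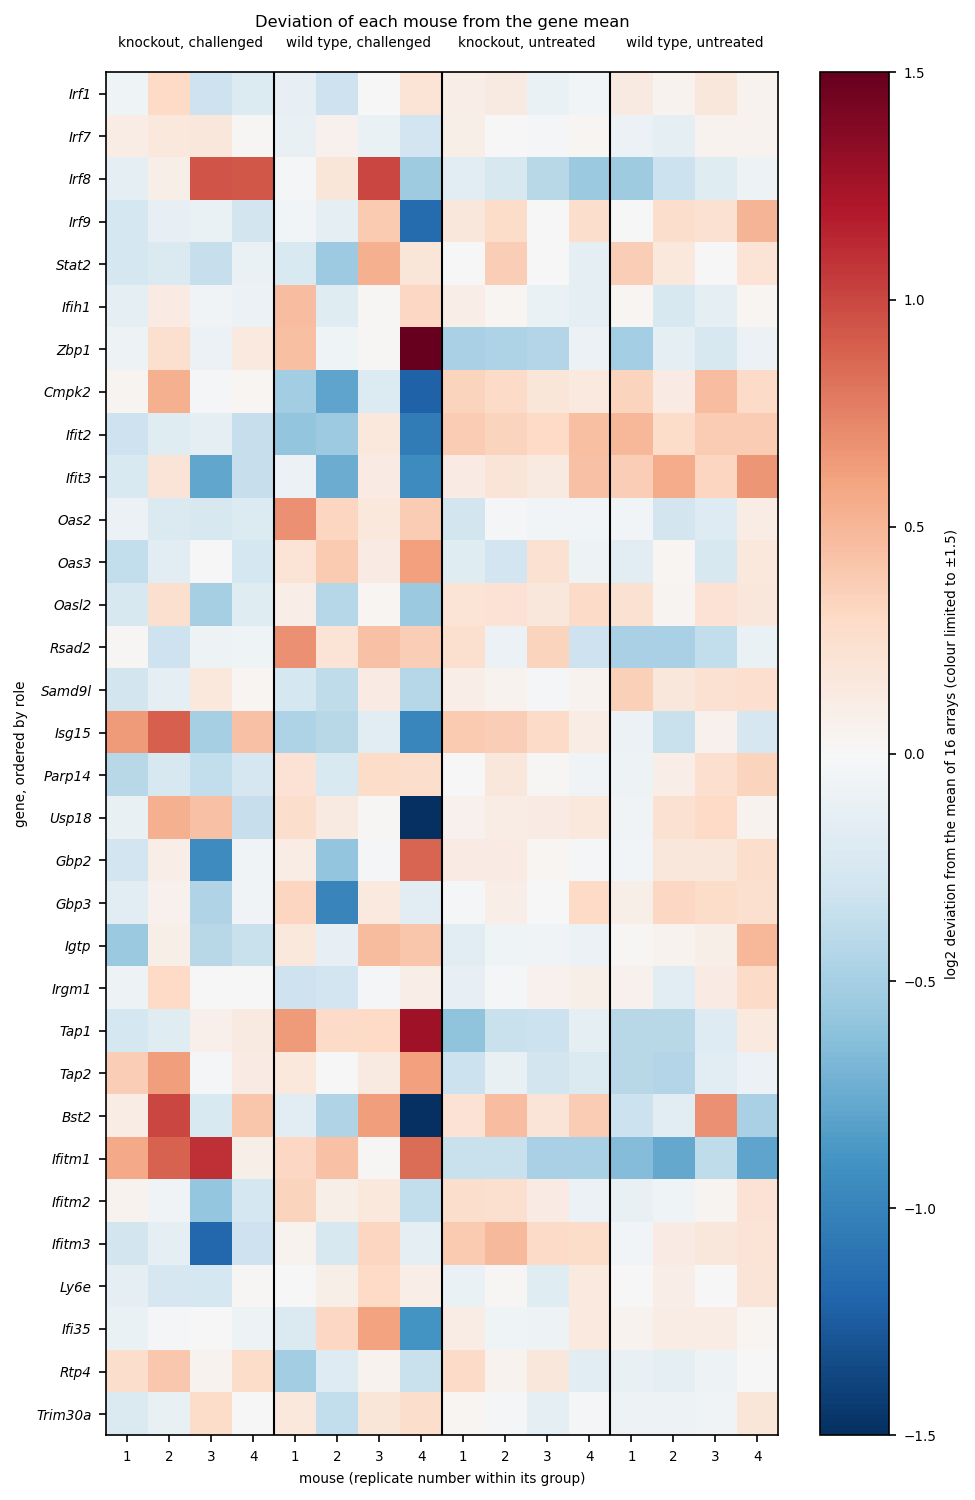
Deviation of each of the 32 tested genes (rows, by role) from its mean over the 16 mice (columns, by group), in log2 units. Rows of opposite colour lie next to each other within the challenged groups, for example Rsad2 and Cmpk2 in challenged wild types, and deviations are mostly smaller in untreated mice.

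The interferon-stimulated genes did not move as a block in any comparison. A gene was called where its probe had a Benjamini-Hochberg adjusted p under 0.05 over all 17810 tested probes in limma, with a single model over the 16 arrays. In all, 16 of the 32 tested genes were called in at least 1 of 5 comparisons and 16 in none. Those called split between higher and lower in both challenge comparisons, and 3 (Ifit2, Tap2 and Ifitm1) were called in both. Of all genes tested, 18.1% were called for challenge in knockouts, 30.8% in wild types and 44.7% between challenged genotypes. The share of all genes called at least once, or in both challenge comparisons, was not counted. The counts of 16 and 3 are therefore not read as particular to these genes. The p-values set a difference against the spread between mice of the same group, estimated over all 16 arrays and partly shared across probes. In whole lung RNA, fewer cells of a type and less RNA per cell cannot be told apart. The 2 challenge comparisons use different arrays, but each genotype comparison shares arrays with them.

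In wild types, challenge raised 5 of the 32 genes and lowered 4, that is 28.1%, against 30.8% of all 12648 genes tested (13.4% higher and 17.4% lower). The genes that rose were Ifitm1, Tap1, Rsad2, Tap2 and Oas2, and those that fell were Cmpk2, Ifit3, Ifit2 and Samd9l. The median log2 difference of the 32 genes was -0.10, against 0.05 over all genes tested. A further 4 genes had an unadjusted p under 0.05 without an adjusted one, for 13 of 32 in all.

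In knockouts, challenge raised 2 of the 32 genes, Ifitm1 and Tap2, and lowered 2, Ifitm3 and Ifit2, that is 12.5%, against 18.1% of all genes tested (10.2% higher and 7.88% lower). The median log2 difference was -0.09, against -0.05 over all genes tested, and 9 of the 32 had an unadjusted p under 0.05. Without challenged wild type replicate 4, which enters this fit through the shared estimate of spread alone, 4 were called higher and 6 lower. Those added were Irf8 and Zbp1 (higher) and Ifit3, Oasl2, Irf9 and Parp14 (lower), and the differences themselves did not move. Calls over all 17810 tested probes rose from 2954 to 5424 in the same step. The higher count fell to 1 without untreated knockout replicates 1, 3 or 4 or challenged knockout replicate 2. The lower count fell to 1 without any 1 of the 4 untreated knockouts or without challenged knockout replicates 1 or 4.

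**Figure D2:**
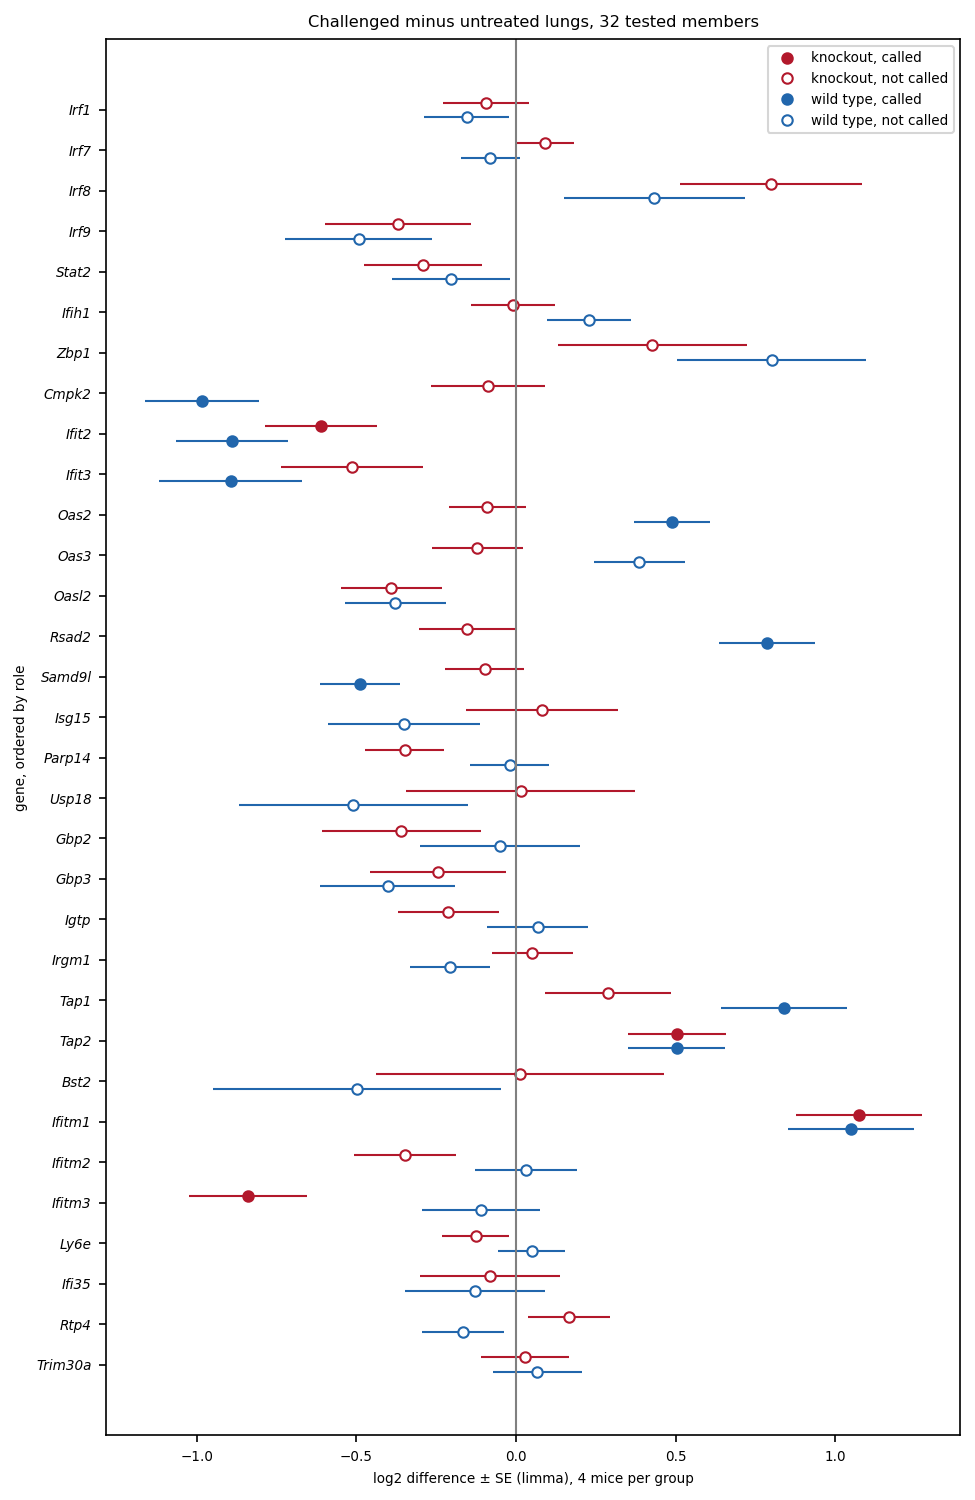
Difference of challenged minus untreated mice in log2 intensity for each tested gene, in knockouts and in wild types, with standard errors from limma (4 mice per group) and called genes marked. Ifitm1 lies near 1 in both genotypes, Rsad2 and Cmpk2 lie on opposite sides of 0 in wild types, and both lie close to 0 in knockouts.

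Other genes moved with challenge in the same mice and are given here because their part in the differences of the interferon-stimulated genes was not tested. Of all genes tested, 10.2% rose and 7.88% fell in knockouts, and 13.4% rose and 17.4% fell in wild types. Of 6 general leukocyte markers, 5 rose in knockouts and 6 in wild types, and their summed intensity was 10998.3 to 16031.5 in challenged knockouts and 12343.6 to 17177 in challenged wild types, against 5984.8 to 7399.6 in untreated knockouts and 5514.6 to 7333.3 in untreated wild types. Of 7 endothelial markers, 6 fell in knockouts and 5 in wild types, with sums of 1129.6 to 3574.4 in challenged knockouts and 3776.2 to 6467.3 in challenged wild types, against 9881.2 to 11608.1 in untreated knockouts and 9680.4 to 12157.8 in untreated wild types. Of 12 markers of striated muscle, 9 rose in knockouts and 7 in wild types, with sums of 31947.6 to 68820 in challenged knockouts and 13412.4 to 55039.3 in challenged wild types, against 10984.1 to 18030.8 in untreated knockouts and 11120.7 to 15524.9 in untreated wild types. Of 9 T and natural killer cell markers, 4 rose in knockouts and 2 in wild types (6 and 5 without challenged wild type replicate 4), with sums of 2842.8 to 5666.6 in challenged knockouts and 3072.2 to 4573.5 in challenged wild types, against 2105 to 2411 in untreated knockouts and 2187.1 to 2424.2 in untreated wild types. Of 4 B cell markers, 3 rose in knockouts and 2 in wild types, with sums of 1038.4 to 3552.1 in challenged knockouts and 814.2 to 3189.9 in challenged wild types, against 501 to 690.8 in untreated knockouts and 456.8 to 637.6 in untreated wild types. Of 5 monocyte and macrophage markers, 3 rose in knockouts, and 2 rose and 1 (Cx3cr1) fell in wild types, with sums of 738.6 to 1772.8 in challenged knockouts and 1118.4 to 1530.6 in challenged wild types, against 566.3 to 751.2 in untreated knockouts and 662.6 to 727.7 in untreated wild types. Of 5 markers of plasmacytoid dendritic cells, which secrete type I interferon, 2 rose in knockouts and 4 in wild types, with sums of 747 to 1160.1 in challenged knockouts and 897.6 to 1328.1 in challenged wild types, against 539.3 to 618.4 in untreated knockouts and 557.8 to 627.1 in untreated wild types. Of 5 markers of lung epithelium, 3 fell in knockouts and 0 in wild types. All general leukocyte, endothelial and epithelial markers were above the 40th percentile in at least 1 mouse of every group. Those below it in every mouse of a group were 1 monocyte or macrophage marker in challenged wild types, 1 T or natural killer cell marker in untreated knockouts, 1 B cell marker in untreated wild types, and 1 muscle and 1 plasmacytoid dendritic cell marker in untreated mice of each genotype.

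The transcription factors that carry the interferon response were not called by their brightest probe in either challenge comparison. Irf8, a factor of myeloid and B cell development that interferon gamma also induces, came closest. Its log2 intensity was 8.52, 8.75, 9.59 and 9.59 in challenged knockouts and 8.64, 8.83, 9.65 and 8.12 in challenged wild types, against 8.50, 8.42, 8.24 and 8.10 in untreated knockouts and 8.12, 8.33, 8.47 and 8.58 in untreated wild types. All 4 challenged knockouts lay above all 4 untreated ones, the lowest only narrowly, while the wild type groups overlapped. The difference was 0.80 ± 0.28 in knockouts (SE, limma, adjusted p = 0.0681) and 0.43 ± 0.28 in wild types (limma, adjusted p = 0.247). Without challenged wild type replicate 4 it was called in knockouts, and the difference in wild types was 0.66 (limma, adjusted p = 0.062). Irf7, which amplifies interferon production, differed by 0.09 ± 0.09 in knockouts and -0.08 ± 0.09 in wild types. Irf9 and Stat2, which act in the type I response, had differences of -0.37 and -0.29 in knockouts and of -0.49 and -0.20 in wild types, where that of Irf9 was -0.19 without challenged wild type replicate 4. Irf1, an early target of interferon gamma, differed by -0.09 in knockouts and -0.15 in wild types (-0.24 without that array). Another of the 5 tested probes of Irf1 was called lower in wild types (-0.52 ± 0.19, limma, adjusted p = 0.0475). Of the sensors, Zbp1, which binds left-handed nucleic acid, had log2 intensities of 7.01, 7.32, 7.00 and 7.23 in challenged knockouts and 7.53, 7.02, 7.10 and 8.91 in challenged wild types, against 6.60, 6.62, 6.64 and 6.99 in untreated knockouts and 6.57, 6.94, 6.85 and 6.99 in untreated wild types. All 8 challenged mice lay above all 8 untreated ones, the lowest only narrowly, and challenged wild type replicate 4 stood far above the rest. The difference was 0.43 ± 0.30 in knockouts and 0.80 ± 0.30 in wild types (limma, adjusted p = 0.0523), and without that array it was 0.38 in wild types (limma, adjusted p = 0.0589). The dimmer second probe of Zbp1 was called higher in knockouts (0.47 ± 0.11, limma, adjusted p = 0.0086) and was not called in wild types (0.18 ± 0.11). That probe was above the 40th percentile in 4 of 4 challenged knockouts and 1 of 4 challenged wild types. In untreated mice it was above in 0 of 4 of each genotype. It passed the filter for testing through challenged mice alone, so its challenge call is no independent support. Ifih1, the sensor of long double-stranded RNA, differed by -0.01 ± 0.13 in knockouts and 0.23 ± 0.13 in wild types.

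Of the 8 tested antiviral effectors, 2 rose and 4 fell with challenge in wild types, and 0 rose and 1 fell in knockouts. They gave 6 of the 9 calls in wild types and 1 of the 4 in knockouts. Of all genes tested, 30.8% were called in wild types and 18.1% in knockouts. Rsad2 encodes viperin, an enzyme that makes a chain-terminating nucleotide, and Cmpk2 encodes a nucleotide kinase that helps to supply its substrate CTP. Rsad2 had log2 intensities of 8.41, 8.08, 8.31 and 8.33 in challenged knockouts and 9.08, 8.59, 8.84 and 8.75 in challenged wild types, against 8.63, 8.30, 8.73 and 8.08 in untreated knockouts and 7.91, 7.91, 8.02 and 8.29 in untreated wild types. Every challenged wild type lay above every untreated wild type, and the knockout groups overlapped. Rsad2 rose by 0.78 ± 0.15 in wild types (1.72-fold, limma, adjusted p = 0.00171), and the difference in knockouts was -0.15 ± 0.15. Cmpk2 had log2 intensities of 7.51, 8.00, 7.45 and 7.50 in challenged knockouts and 6.94, 6.68, 7.27 and 6.25 in challenged wild types, against 7.80, 7.76, 7.65 and 7.62 in untreated knockouts and 7.80, 7.60, 7.93 and 7.75 in untreated wild types. All 4 challenged wild types were below all 12 other mice. Cmpk2 fell by 0.98 on the log2 scale in wild types (SE 0.18, limma, adjusted p = 0.00119), and the difference in knockouts was -0.09 ± 0.18. The RefSeq table places both next to each other on chromosome 12.

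Ifit2 and Ifit3, neighbours on chromosome 19, bind viral RNA. Ifit2 had log2 intensities of 7.26, 7.38, 7.43 and 7.22 in challenged knockouts and 6.98, 7.02, 7.72 and 6.51 in challenged wild types, against 7.95, 7.90, 7.86 and 8.02 in untreated knockouts and 8.06, 7.84, 7.95 and 7.94 in untreated wild types. All 8 challenged mice lay below all 8 untreated ones. Ifit2 fell by 0.61 in knockouts (SE 0.18, limma, adjusted p = 0.0261) and by 0.89 in wild types (SE 0.18, limma, adjusted p = 0.00219). The call in knockouts was lost without any 1 of the 4 untreated knockouts or without challenged knockout replicates 1 or 4, where the limma adjusted p reached 0.0724. Ifit3 had log2 intensities of 9.01, 9.43, 8.46 and 8.89 in challenged knockouts and 9.15, 8.50, 9.36 and 8.29 in challenged wild types, against 9.36, 9.43, 9.38 and 9.68 in untreated knockouts and 9.61, 9.80, 9.56 and 9.90 in untreated wild types. The wild type groups did not overlap and the knockout groups did. Ifit3 fell by 0.89 in wild types (SE 0.22, limma, adjusted p = 0.00893), and the difference in knockouts was -0.51 ± 0.22 (limma, adjusted p = 0.136). The second tested probe of Ifit3 differed by -0.03 ± 0.14 in knockouts and -0.23 ± 0.14 in wild types, without a call.

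The 2'-5' oligoadenylate synthetases make the second messenger that switches on the RNA-degrading enzyme RNase L. Oas2 had log2 intensities of 7.41, 7.27, 7.24 and 7.28 in challenged knockouts and 8.18, 7.82, 7.65 and 7.87 in challenged wild types, against 7.22, 7.46, 7.44 and 7.45 in untreated knockouts and 7.45, 7.21, 7.29 and 7.60 in untreated wild types. The 4 challenged wild types were the highest of the 16 mice, and the lowest of them exceeded the highest untreated wild type by a small margin. Oas2 rose by 0.49 ± 0.12 in wild types (limma, adjusted p = 0.00801), against a difference of -0.09 ± 0.12 in knockouts. Its neighbour on chromosome 5, Oas3, differed by 0.39 ± 0.14 in wild types, where the limma adjusted p of 0.0506 missed the threshold, and by -0.12 ± 0.14 in knockouts. Oasl2, a related protein, differed by -0.39 ± 0.16 in knockouts and -0.38 ± 0.16 in wild types, with neither called. Samd9l, an antiviral and growth-restraining protein, had log2 intensities of 9.85, 9.73, 10.24 and 9.69 in challenged wild types, against 10.47, 10.28, 10.34 and 10.36 in untreated wild types. Samd9l fell by 0.49 there (SE 0.12, limma, adjusted p = 0.00963), and the difference in knockouts was -0.10 ± 0.12. When the 8 wild type arrays were fitted alone, Samd9l and Oas2 lost their calls, as did Tap1 and Tap2 (limma, adjusted p of 0.0532 to 0.0764).

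Both subunits of the peptide transporter that supplies MHC class I rose with challenge in wild types. Tap1 had log2 intensities of 7.39, 7.47, 7.74 and 7.79 in challenged knockouts and 8.29, 7.94, 7.96 and 8.93 in challenged wild types, against 7.05, 7.32, 7.34 and 7.52 in untreated knockouts and 7.24, 7.25, 7.47 and 7.81 in untreated wild types. The wild type groups were apart and the knockout groups overlapped. Tap1 rose by 0.84 ± 0.20 in wild types (1.79-fold, limma, adjusted p = 0.0066), against a difference of 0.29 ± 0.20 in knockouts. Tap2 had log2 intensities of 9.89, 10.15, 9.50 and 9.65 in challenged knockouts and 9.68, 9.53, 9.66 and 10.14 in challenged wild types, against 9.21, 9.42, 9.25 and 9.30 in untreated knockouts and 9.10, 9.09, 9.37 and 9.44 in untreated wild types. All 8 challenged mice were above all 8 untreated ones. Tap2 rose by 0.50 ± 0.15 in knockouts (limma, adjusted p = 0.0334) and by 0.50 ± 0.15 in wild types (limma, adjusted p = 0.0236). The call in knockouts was lost without untreated knockout replicates 1, 3 or 4 or challenged knockout replicates 1 or 2 (limma, adjusted p up to 0.102), and that in wild types without untreated wild type replicates 1 or 2 (limma, adjusted p up to 0.0714).

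The interferon-induced transmembrane proteins, which hold viruses back at the membrane of the cell or endosome, did not move together. Ifitm1 had log2 intensities of 8.76, 9.08, 9.28 and 8.28 in challenged knockouts and 8.50, 8.63, 8.20 and 9.03 in challenged wild types, against 7.86, 7.86, 7.70 and 7.70 in untreated knockouts and 7.54, 7.43, 7.81 and 7.40 in untreated wild types. All 8 challenged mice lay above all 8 untreated ones. Ifitm1 rose by 1.07 ± 0.20 in knockouts (2.10-fold, limma, adjusted p = 0.00157) and by 1.05 ± 0.20 in wild types (2.07-fold, limma, adjusted p = 0.00152). The second tested probe of Ifitm1 differed by 0.03 ± 0.15 in knockouts and 0.19 ± 0.15 in wild types and was not called. That probe was above the 40th percentile on 5 arrays only, with 0 of 4 mice in either knockout group. The rise was therefore seen with 1 of 2 probes, and the other was too close to background to decide. Ifitm3, its neighbour on chromosome 7, had log2 intensities of 11.99, 12.13, 11.10 and 11.96 in challenged knockouts and 12.33, 12.03, 12.60 and 12.14 in challenged wild types, against 12.66, 12.76, 12.56 and 12.54 in untreated knockouts and 12.23, 12.40, 12.44 and 12.47 in untreated wild types. The knockout groups were apart, with challenged replicate 3 far below the others, and the wild type groups overlapped. Ifitm3 fell by 0.84 in knockouts (SE 0.19, limma, adjusted p = 0.00545), against a difference of -0.11 ± 0.19 in wild types (-0.07 without challenged wild type replicate 4). Ifitm2, which lies on the other side of Ifitm1, differed by -0.35 ± 0.16 in knockouts and 0.03 ± 0.16 in wild types (0.17 without challenged wild type replicate 4), without a call. Bst2, which tethers budding virions, differed by 0.01 ± 0.45 in knockouts and by -0.50 ± 0.45 in wild types, with a spread over the challenged wild types of 4.75 to 7.65. The lowest of these was replicate 4, without which the wild type difference was 0.07. Ly6e, a membrane-anchored restriction factor, differed by -0.13 ± 0.10 in knockouts and 0.05 ± 0.10 in wild types.

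The remaining genes were not called in either challenge comparison by their brightest probe. Isg15, a ubiquitin-like modifier, differed by 0.08 ± 0.24 in knockouts and -0.35 ± 0.24 in wild types (-0.19 without challenged wild type replicate 4). Usp18, the protease that removes it, differed by 0.01 ± 0.36 in knockouts and -0.51 ± 0.36 in wild types. The wild type value rests on challenged wild type replicate 4, at 6.53 with the others at 8.47 to 8.72, and was 0.01 without that array. The other 2 probes of Usp18 differed by 0.49 and 0.09 in wild types, the first of them by 0.20 without that array. Gbp3, a guanylate-binding GTPase, had log2 intensities of 8.61, 8.85, 8.34 and 8.73 in challenged knockouts and 9.11, 7.80, 8.92 and 8.61 in challenged wild types, against 8.75, 8.89, 8.78 and 9.09 in untreated knockouts and 8.87, 9.10, 9.05 and 9.02 in untreated wild types, so that the groups overlapped in both genotypes. Among the GTPases, Gbp2 differed by -0.36 and -0.05, Gbp3 by -0.24 and -0.40, Irgm1 by 0.05 and -0.21, and Igtp by -0.21 and 0.07, in knockouts and in wild types. In wild types Gbp2 differed by -0.31 without challenged wild type replicate 4. Parp14, an ADP-ribosyltransferase, differed by -0.35 ± 0.12 in knockouts (limma, adjusted p = 0.066) and -0.02 ± 0.12 in wild types. Rtp4, Ifi35 and the TRIM family protein Trim30a had differences between -0.17 and 0.16 in both genotypes. That of Ifi35 was -0.13 in wild types, and 0.15 without challenged wild type replicate 4.

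**Figure D3:**
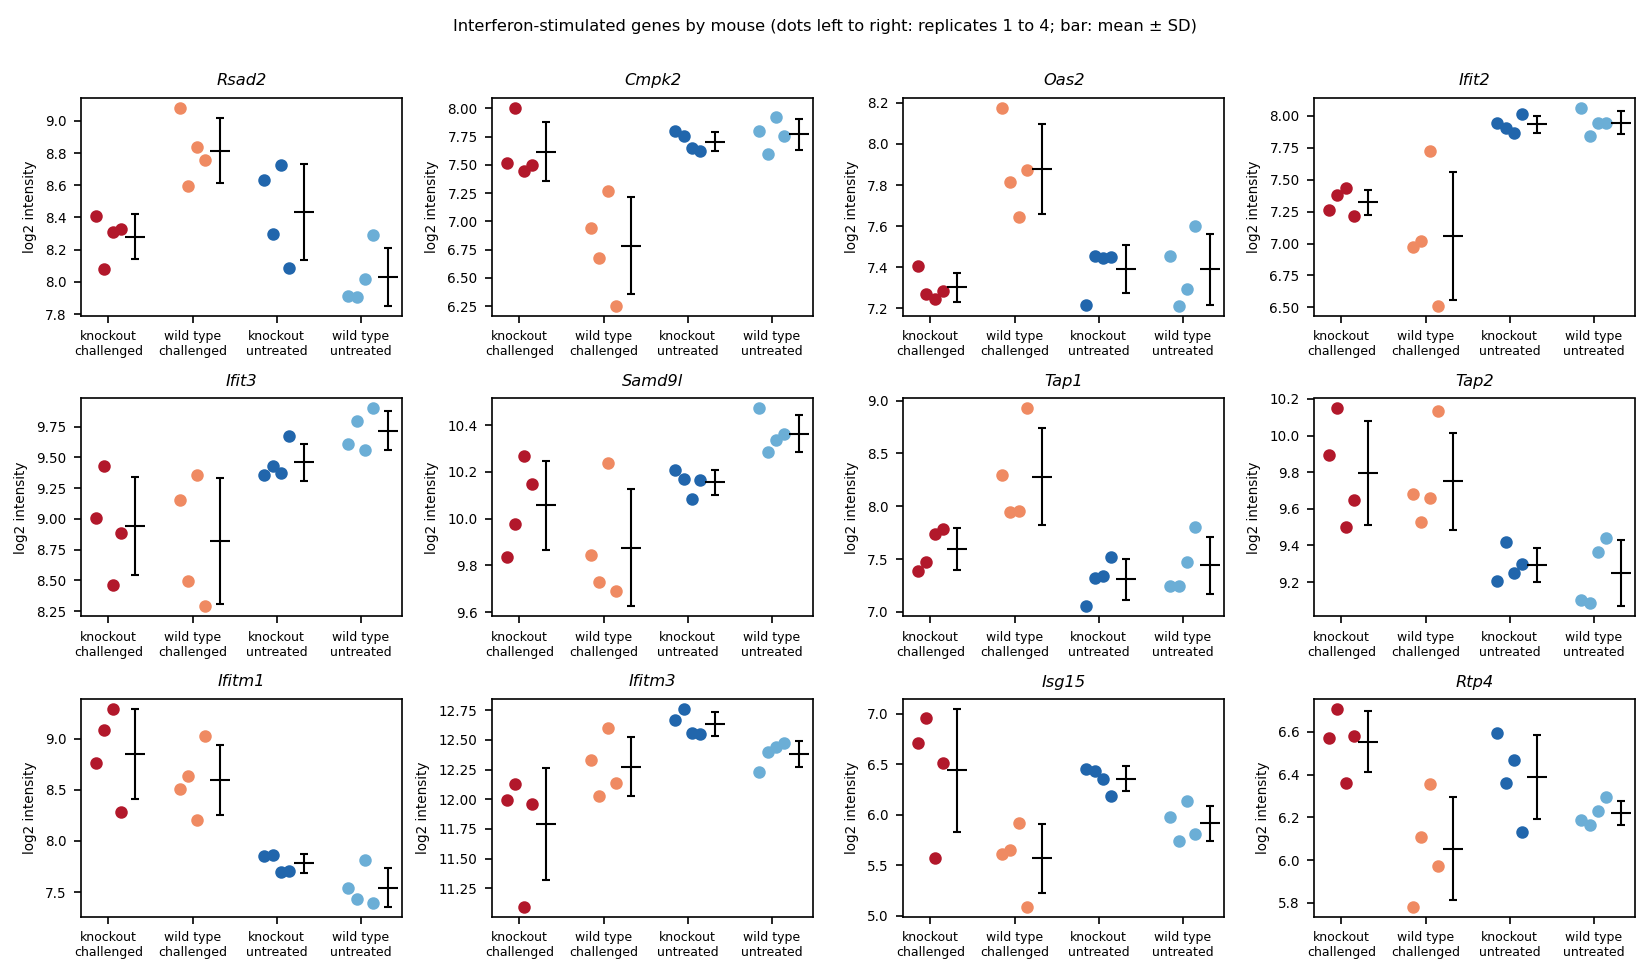
Log2 intensity in each mouse (points) and group means with SD (bars, n = 4) for selected interferon-stimulated genes, with groups from left to right challenged knockout, challenged wild type, untreated knockout and untreated wild type. Cmpk2 is lowest and Rsad2 and Oas2 are highest in challenged wild types, while Ifitm1 is high and Ifit2 low in the challenged mice of both genotypes.

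Between challenged knockouts and challenged wild types, 3 of the 32 genes were called higher (Isg15, Cmpk2 and Rtp4) and 8 lower (Tap1, Oas2, Igtp, Rsad2, Oas3, Ifitm3, Parp14 and Ly6e). This is 34.4% of the genes, against 44.7% of all genes tested (20.4% higher and 24.3% lower), and the median log2 difference was 0.01 against -0.01 over all genes tested. The unadjusted p was under 0.05 for 12 of the 32. Cmpk2 was higher in challenged knockouts by 0.83 ± 0.18 (1.78-fold, limma, adjusted p = 0.00248). Oas2 had a difference of -0.58 ± 0.12 (limma, adjusted p = 0.00213), and Rsad2 had a difference of -0.53 ± 0.15 (limma, adjusted p = 0.011). For these 3 genes the challenged groups did not overlap. Oas3 had log2 intensities of 6.21, 6.40, 6.57 and 6.31 in challenged knockouts, against 6.78, 6.96, 6.69 and 7.19 in challenged wild types, a difference of -0.53 ± 0.14 (limma, adjusted p = 0.00829). Tap1 differed by -0.68 ± 0.20 (limma, adjusted p = 0.013), again without overlap.

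Parp14 had log2 intensities of 8.76, 8.93, 8.81 and 8.93 in challenged knockouts, against 9.39, 8.95, 9.45 and 9.44 in challenged wild types, a difference of -0.45 ± 0.12 (limma, adjusted p = 0.00964). The groups were apart by a narrow margin, set by challenged wild type replicate 2. Rtp4, a chaperone of membrane receptors that is induced by interferon, stood at 6.57, 6.71, 6.36 and 6.58 in challenged knockouts, against 5.78, 6.11, 6.35 and 5.97 in challenged wild types, of which 1 was above the 40th percentile. Its difference was 0.50 ± 0.13 (limma, adjusted p = 0.00702). Isg15 stood at 6.71, 6.96, 5.57 and 6.51 in challenged knockouts, against 5.61, 5.66, 5.91 and 5.09 in challenged wild types. Challenged knockout replicate 3 fell among the wild types, so the groups overlapped. The measured difference was 0.87 ± 0.24 (limma, adjusted p = 0.0094), but 0 of 4 challenged wild types were above the 40th percentile, and set against that gauge Isg15 was at least 1.15-fold higher in challenged knockouts. Isg15 passed the filter for testing through knockout mice alone, so its call is no independent support for a genotype difference.

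Igtp, a GTPase of the immunity-related family, stood at 7.71, 8.36, 7.85 and 7.93 in challenged knockouts, against 8.42, 8.14, 8.75 and 8.69 in challenged wild types. The groups overlapped through challenged knockout replicate 2, and the difference was -0.54 ± 0.16 (limma, adjusted p = 0.0141). Ifitm3 differed by -0.48 ± 0.19 (limma, adjusted p = 0.0461) and Ly6e by -0.28 ± 0.10 (limma, adjusted p = 0.0434), both with overlapping groups. Ifitm3 kept its call only without challenged wild type replicates 2 or 4 or challenged knockout replicates 1 or 2, and the limma adjusted p was up to 0.135 when another array was left out. Without challenged knockout replicate 3, its lowest mouse, the difference was -0.25. Its call was also lost with the replicate number as a block, with cyclic loess, with the 60th percentile filter and with array weights (limma, adjusted p of 0.051 to 0.127). Ly6e lost its call without 10 of the 16 arrays (limma, adjusted p up to 0.106), and kept it without untreated wild type replicate 4, untreated knockout replicates 3 or 4, challenged wild type replicates 1 or 4 or challenged knockout replicate 4. The higher count was 6 without challenged wild type replicate 3. With the 8 challenged arrays fitted alone, Isg15, Tap1, Ifitm3, Igtp, Ly6e and Parp14 lost their calls.

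In the same challenged mice, 5 of 7 endothelial and 4 of 5 lung epithelial markers were lower in knockouts than in wild types, and 4 of 12 striated muscle markers were higher. Of all genes tested, 20.4% were higher and 24.3% lower in this comparison. The summed intensity of the epithelial markers was 29351.3 to 51368.2 in challenged knockouts and 55134.2 to 72814.9 in challenged wild types, against 61246.6 to 73201.9 in untreated knockouts and 72345.4 to 75285.7 in untreated wild types. The sums for the endothelial and muscle markers are given above with the challenge comparisons. Of the 6 general leukocyte markers, 1 (Lcp1) was lower in challenged knockouts and none was higher. Of 5 monocyte and macrophage markers, 3 (C1qa, Ms4a7 and Cx3cr1) were higher, with a median difference of 0.79 over the 5, and of 4 B cell markers 1 (Ms4a1) was. Of 9 T and natural killer cell markers 1 (Cd247) was lower, as was 1 of 5 plasmacytoid dendritic cell markers (Ccr9). The part of these markers in the differences of the interferon-stimulated genes was not tested.

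**Figure D4:**
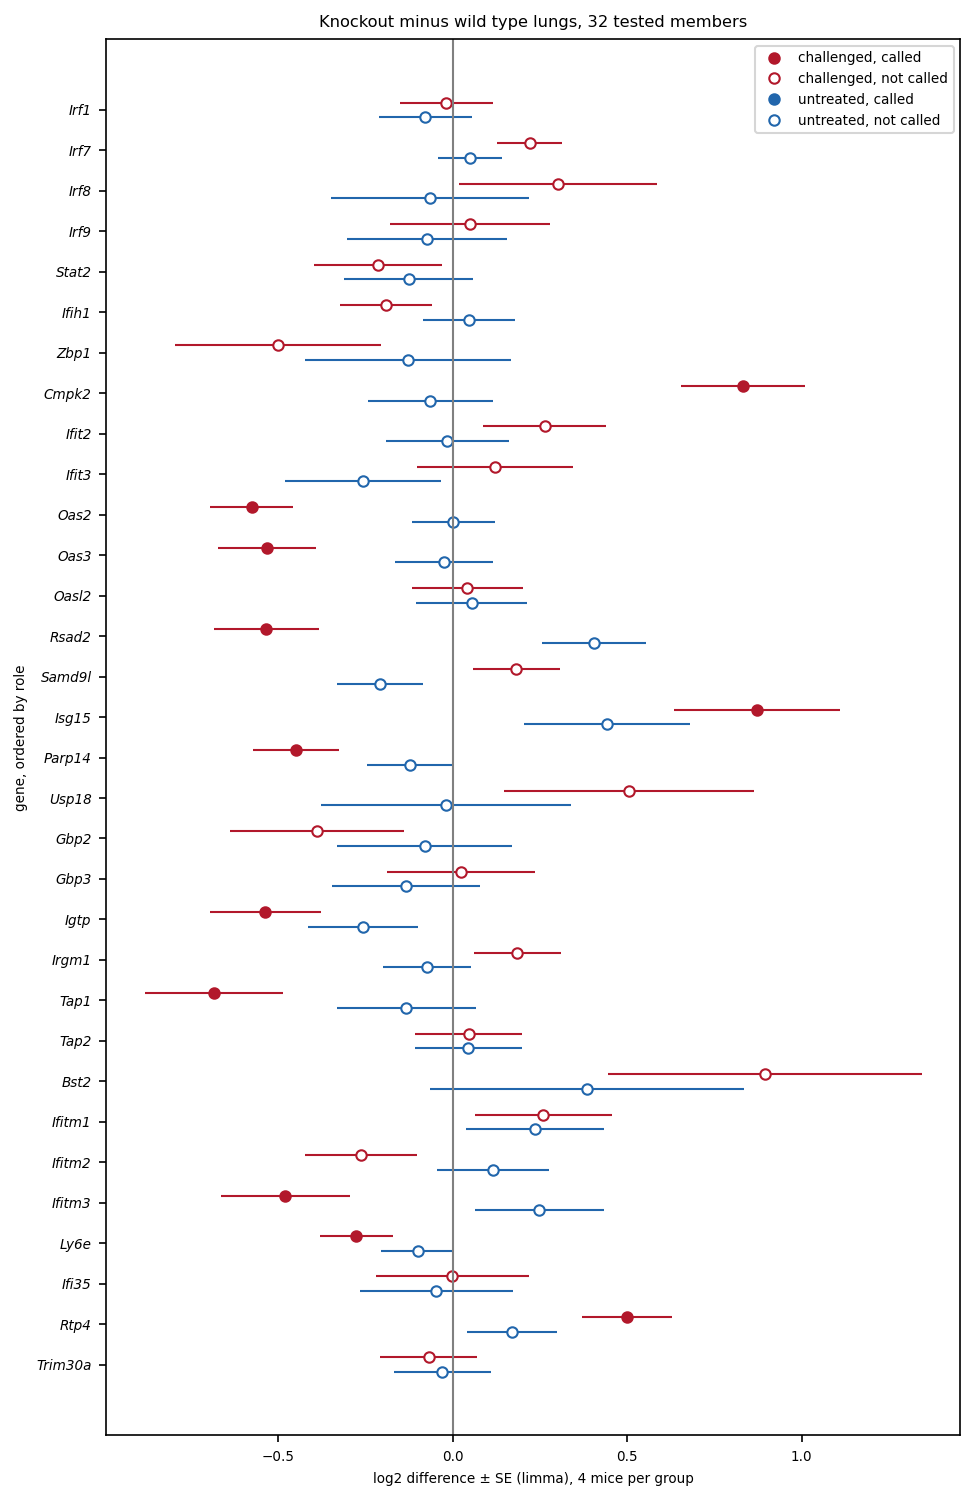
Difference of knockout minus wild type mice in log2 intensity for each tested gene, in challenged and in untreated mice, with standard errors from limma (4 mice per group) and called genes marked. In challenged mice 3 genes are called higher and 8 lower, and in untreated mice 0 are called.

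In untreated mice, 0 of the 32 genes differed between knockouts and wild types in limma, where 0.0237% of all genes tested were called (0.00791% higher and 0.0158% lower). The median log2 difference was -0.04, against -0.00 over all genes tested. At an unadjusted p under 0.05 there was 1 gene, Rsad2. Its difference was 0.41 ± 0.15, with 15 of the 16 pairs of an untreated knockout and an untreated wild type higher in the knockout. Isg15 had a difference of 0.44 ± 0.24, with values of 6.46, 6.44, 6.35 and 6.19 in untreated knockouts, against 5.98, 5.74, 6.13 and 5.81 in untreated wild types. These groups did not overlap, but all 4 wild types lay below the 40th percentile.

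The effect of challenge differed between the genotypes for 3 of the 32 genes (9.38%), against 9.32% of all genes tested (5.46% higher and 3.87% lower). The interaction, that is the challenge effect in knockouts minus that in wild types, was -0.94 ± 0.21 for Rsad2 (limma, adjusted p = 0.0202), 0.90 ± 0.25 for Cmpk2 (limma, adjusted p = 0.0396) and -0.58 ± 0.17 for Oas2 (limma, adjusted p = 0.0453). Cmpk2 was the gene called higher, and Rsad2 and Oas2 were those called lower. In untreated mice Cmpk2 and Oas2 had genotype differences of -0.06 and 0.00, whereas that of Rsad2 was 0.41. Over the 32 genes the median interaction was 0.01, against -0.01 over all genes tested, and 6 had an unadjusted p under 0.05. Rsad2 lost its call without untreated wild type replicate 1 (limma, adjusted p = 0.0515). Cmpk2 kept its call without untreated wild type replicate 4, untreated knockout replicate 1, challenged wild type replicates 2, 3 or 4 or challenged knockout replicate 3, and Oas2 without the same arrays except the last (limma, adjusted p up to 0.0836 for Cmpk2 and 0.0919 for Oas2). The count of higher genes was 3 without challenged wild type replicate 3 and 0 without any array whose omission ended the call of Cmpk2. For Ifitm3, which was called in the knockout challenge comparison and not in that of wild types, the interaction was -0.73 ± 0.26 (limma, adjusted p = 0.0824), which missed the threshold.

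**Figure D5:**
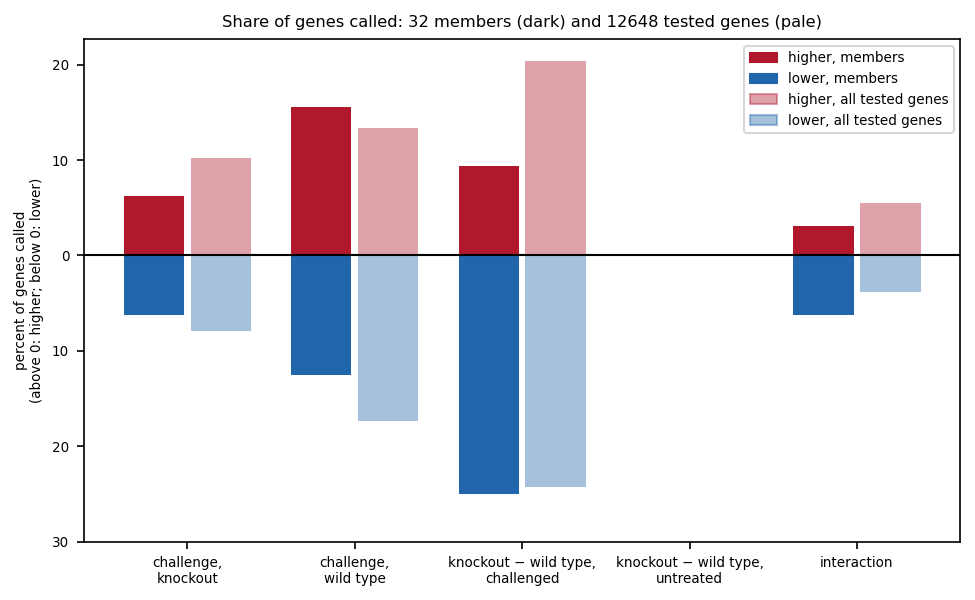
Percentage of tested genes called higher and lower in each comparison, for the 32 interferon-stimulated genes and for all 12648 genes tested. Over both directions, the share of interferon-stimulated genes is below that of all genes in both challenge comparisons and between genotypes in challenged mice, and it is 9.38% against 9.32% for the interaction.

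Different probes of a gene did not always move alike. Of the 32 genes, 11 had several tested probes, and their differences had opposite signs in 2 of the 11 for challenge in knockouts, in 4 for challenge in wild types and in 4 between challenged genotypes. In 0 cases were 2 probes of a gene called in opposite directions. The second probe of Ifit2 fell with challenge by 0.68 in knockouts and 1.19 in wild types, the same direction as the first. That probe was above the 40th percentile in 1 of 4 challenged wild types and in 4 of 4 mice of each other group. In wild types the second probe of Irgm1 fell by 0.78 (SE 0.16, limma, adjusted p = 0.00268) where the brightest probe differed by -0.21, that of Gbp3 fell by 1.04 where the brightest differed by -0.40, and that of Gbp2 rose by 0.84 where the brightest differed by -0.05. Between challenged genotypes, 3 probes of Irf1 were called lower while the brightest differed by -0.02. The dimmest of the 3 was near background, above the 40th percentile in 0 of 4 challenged knockouts and 4 of 4 challenged wild types. The second probe of Gbp2 was also called lower in challenged knockouts (limma, adjusted p = 0.0158), with challenged wild type replicate 4 the highest mouse at 8.69. Those of Irgm1 and Ifit2 were called higher (0.63 and 0.58, limma, adjusted p = 0.00684 and 0.0266). The brightest probes of these genes were not called there. The second probe of Zbp1 was higher in challenged knockouts by 0.47 (limma, adjusted p = 0.00477) where the brightest differed by -0.50. This second probe was near background, above the 40th percentile in 4 of 4 challenged knockouts and 1 of 4 challenged wild types. It passed the filter for testing only with the challenged knockouts counted, so that call is no independent support. The second probe of Irgm1 also had an interaction of 0.83 ± 0.23 (limma, adjusted p = 0.0375). The second probe of Ifitm1, which was not called for challenge, was called lower in challenged knockouts, with a difference of -0.40 (limma, adjusted p = 0.0382) where the brightest differed by 0.26 (0.41 without challenged wild type replicate 4). This second probe too was near background, above the 40th percentile in 0 of 4 challenged knockouts and 3 of 4 challenged wild types. It passed the filter through wild types alone, so the same limit holds. A second probe of Usp18 was also called lower there (-0.59, limma, adjusted p = 0.0472) where the brightest differed by 0.51. Without challenged wild type replicate 4 the brightest probe of Usp18 differed by -0.01 there, that of Zbp1 by -0.08, and the call of the second probe of Usp18 was lost (-0.30). Also without that array, 1 of the 3 calls for Irf1 remained, and in wild types the second probe of Gbp2 differed by 0.47 (limma, adjusted p = 0.0912) and that of Gbp3 by -0.65 (limma, adjusted p = 0.0383). The calls of Gbp2, Gbp3, Irgm1, Zbp1, Usp18, Ifitm1 and Ifit3, and the genotype call of Ifit2, therefore each rest on 1 probe per comparison. Those of Irf1 leave out its brightest probe, with 3 of 5 probes called lower between challenged genotypes. Igtp had 1 probe.

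Genes with and without the ISRE letters in their window were called in both directions. With challenge in wild types, 1 of the 12 tested genes with a match rose (Rsad2) and 1 fell (Ifit3), and of the 13 without a match 2 rose (Tap1 and Ifitm1) and 3 fell (Cmpk2, Ifit2 and Samd9l). Between challenged genotypes, 1 gene with a match was higher in knockouts (Isg15) and 3 were lower (Oas3, Rsad2 and Igtp), against 1 higher (Cmpk2) and 2 lower (Tap1 and Ifitm3) without a match. Over all genes tested, 13.4% rose and 17.4% fell with challenge in wild types, and 20.4% were higher and 24.3% lower between challenged genotypes. Among the called genes in these comparisons, Oas2, Tap2, Parp14, Rtp4 and Ly6e are not among the genes with a window.

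Of the interferons and their receptors, 11 genes were tested. With challenge, 1 rose and 0 fell in knockouts, and 2 rose and 2 fell in wild types, that is 9.09% and 36.4%, against 18.1% and 30.8% of all genes tested. Ifngr2, a chain of the interferon gamma receptor, rose by 0.74 ± 0.17 in knockouts and 0.56 ± 0.17 in wild types, while Ifngr1, the other chain, fell by 1.39 in wild types (SE 0.29, limma, adjusted p = 0.00316). Ifnlr1, the receptor chain for type III interferon, fell by 0.62 in wild types. Ifna2, a type I interferon, was called higher in challenged wild types (limma, adjusted p = 0.0362), but 1 of 4 untreated wild types was above the 40th percentile, and the call was lost without any 1 of 6 arrays. The measured difference was 0.60, and 0.36 without challenged wild type replicate 4. Between challenged genotypes 4 were lower in knockouts and 0 higher (36.4%), against 44.7% of all genes tested, and 2 were lower without challenged wild type replicate 4. Ifng had a difference of -0.66 ± 0.23, and of -0.36 without that array (limma, adjusted p = 0.0356). Ifna2 and Ifna4, which lost their calls without it, were above the 40th percentile in 2 and 1 of 4 challenged knockouts. Ifnar1, the type I receptor chain, lay below the 40th percentile in 4 of 4 challenged knockouts and was lower there than in challenged wild types (limma, adjusted p = 0.0101). Set against that gauge, the mean of all 4 challenged wild types was 1.75-fold higher. The measured difference of Ifnar1 was -1.09, and -0.65 without challenged wild type replicate 4, so the 1.75-fold value does not hold without that array. Ifnb1 was too dim to test.

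Among 20 tested genes of interferon induction and signalling, challenge raised 3 and lowered 3 in knockouts and raised 3 and lowered 4 in wild types. These are 30% and 35% of the 20, against 18.1% and 30.8% of all genes tested. Irf2, which competes with Irf1 at the ISRE, fell by 1.03 in knockouts and 0.96 in wild types (limma, adjusted p = 0.000103 and 0.000126). Irf5 rose by 1.08 ± 0.18 in wild types. Mavs, the mitochondrial adaptor of the RNA sensors, fell by 0.77 in wild types, where 1 of 4 challenged mice was above the 40th percentile, and was 1.13 ± 0.16 higher in challenged knockouts than in challenged wild types (limma, adjusted p = 0.000231). Ddx58, which encodes the sensor RIG-I, was lower in challenged knockouts with a difference of -0.88 ± 0.17. Tlr3, a sensor of double-stranded RNA, had a difference of -1.15 ± 0.30 in the same comparison, and of -0.71 without challenged wild type replicate 4. In that comparison 3 genes were higher and 6 lower (45%), against 44.7% of all genes tested. The interaction was called for Mavs and Ddx58, that is 10% of the 20, against 9.32% of all genes tested. It was 1.01 ± 0.22 for Mavs and -0.84 ± 0.24 for Ddx58. The interaction call of Ddx58 was lost without any 1 of 10 arrays (limma, adjusted p up to 0.094).

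Of 40 further tested interferon-stimulated genes outside the list of 40, 5 rose and 3 fell with challenge in knockouts, 10 rose and 7 fell in wild types, and 7 were higher and 6 lower in challenged knockouts than in challenged wild types. These are 20%, 42.5% and 32.5% of the 40, against 18.1%, 30.8% and 44.7% of all genes tested. Ifi27l2a rose by 0.91 ± 0.21 in knockouts and 1.16 ± 0.21 in wild types. Slfn2, a Schlafen family gene of T cells and myeloid cells, lay above the 40th percentile only in challenged knockouts, in 4 of 4 mice. It was at least 1.58-fold higher there both than in untreated knockouts and than in challenged wild types (limma, adjusted p = 0.000247 and 0.000433). Slfn2 passed the filter for testing through the challenged knockouts alone. Its calls, that for the interaction included, are therefore no independent support. Tapbp, which couples the peptide transporter to MHC class I, rose by 1.09 ± 0.32 in wild types (0.61 without challenged wild type replicate 4) and had a difference of -1.49 ± 0.32 between challenged genotypes. Trim21, a cytosolic antibody receptor, fell by 1.18 in wild types. The interaction was called for 2 higher and 2 lower, that is 10% of the 40, against 9.32% of all genes tested. Among them were Slfn2, the immunoproteasome subunit Psmb10 (-0.94 ± 0.28) and B2m, the light chain of MHC class I (-0.75 ± 0.18). Of 16 arrays left out in turn, 4 ended the interaction call of Slfn2, 12 that of Psmb10 and 5 that of B2m. In untreated mice 0 genes of these 3 lists were called between genotypes.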

How the data were processed

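Lung RNA of 16 mice was labelled with biotin and hybridised to Illumina mouse bead arrays, 1 mouse on each. The authors deposited a linear intensity for every probe, made with GenomeStudio 2011.1 per the submitters' processing notes, with no detection p. Normalization and background treatment are not given in the sources used here. At the same rank the arrays differed by at most 4.9, so no normalization was added. Intensities ran from 0.1 to 45825.5, and the 1123 of 411152 values below 16 were set to 16 before log2. A probe was tested if at least 4 arrays had it above their 40th percentile (17810 of 25697). Gene symbols come from the platform annotation (23978 probes with 1 symbol, 0 with several, 1719 with none).

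Group means were fitted over the 16 arrays with limma 3.58.1 in R 4.3.3 (lmFit, eBayes). The contrasts were the challenge effect within knockouts and within wild types, the genotype difference within challenged and within untreated mice, and the interaction. Adjusted p-values are Benjamini-Hochberg over all tested probes of a contrast, called under 0.05. Errors of differences are limma's standard errors, with 4 mice in every group. The fit was tested on simulated data. Groups were taken from the labels, replicates are separate mice, and the number of arrays limits the precision. No batch is given in the sources used here. Genes are named by role, with every mouse's values for up to 3 called genes with the largest difference in a role, or the gene with the smallest p where none was called (not all of them are printed), and the members and gene lists were chosen with earlier results of these data known. Promoter windows come from RefSeq (GRCm38.p6) by gene symbol, for 31 of the 40 genes. Alternatives were other floors, normalizations, filters, variance models, array weights, arrays in the fit, probes per gene, a replicate block, and leaving out each array.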

Additional observations from a re-analysis of the deposited data

Results flagged for a closer look

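Among 128 groups of 4 mice (32 genes in 4 groups), 9 held a mouse whose gap to the nearest of the other 3 exceeded Dixon's critical share of the group's range, where chance alone gives about 1 in 20. In challenged knockouts, Cmpk2 stood at 8.00 in replicate 2, with the others at 7.45 to 7.51, and Ifitm3 at 11.10 in replicate 3, with the others at 11.96 to 12.13. In challenged wild types, Usp18 stood at 6.53 in replicate 4, with the others at 8.47 to 8.72, and replicate 2 was low for Parp14 at 8.95 (others 9.39 to 9.45) and for Trim30a at 8.47 (others 9.00 to 9.10). In untreated knockouts, Oas2 stood at 7.22 in replicate 1 (others 7.44 to 7.46) and Zbp1 at 6.99 in replicate 4 (others 6.60 to 6.64). In untreated wild types, replicate 4 was high for Igtp at 8.77 (others 8.29 to 8.35) and for Trim30a at 9.02 (others 8.76 to 8.78).

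The challenge effect in knockouts minus that in wild types passed the threshold for Rsad2 (-0.94), Cmpk2 (0.90) and Oas2 (-0.58). The array that was low for Usp18, challenged wild type replicate 4, also had the lowest weight among the 16 arrays when arrays were weighted by their fit, at 0.0602.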

How the results depend on the processing

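In 0 of the 27 called single-gene differences did any alternative reverse the sign. Many of the fits could not do so. Filters, variance models, the compared arrays alone and the replicate block leave a difference of group means unchanged. So does leaving out an array outside the comparison. Quantile normalization and median centring moved little, as the arrays already differed by at most 4.9 at the same rank. The fits counted next are therefore not separate checks. Calls were lost in 57 of 432 fits that left out 1 array and in 22 of 265 fits under the other alternatives, and the cause was not tested. With challenge in knockouts, the higher genes numbered 4 and the lower 6 both with array weights and with the 8 compared arrays alone. With challenge in wild types, the higher genes numbered 2 with the compared arrays alone and the lower 8 with every probe counted. Between challenged genotypes, the higher genes numbered 5 with cyclic loess, 1 with a filter at the 60th percentile and 6 with every probe counted, the lower 3 with the compared arrays alone and 14 with every probe counted, and the median difference was -0.12 with cyclic loess. For the interaction, the lower genes numbered 1 with cyclic loess, without a filter, with the filter at the 60th percentile and with eBayes with trend and robust, and the higher genes 2 with every probe counted. More probes counted raises counts by construction. Leaving out each array in turn gave 1 to 4 higher and 1 to 6 lower genes with challenge in knockouts (median -0.11 to -0.07), and 4 to 7 higher and 4 to 6 lower with challenge in wild types (median -0.13 to -0.01). It gave 3 to 6 higher and 6 to 9 lower between challenged genotypes (median -0.07 to 0.07), 0 and 0 between untreated genotypes (median -0.06 to 0.00), and 0 to 3 higher and 0 to 2 lower for the interaction (median -0.08 to 0.07). Leaving out each array was also applied, after seeing the data, to the other gene lists. Between challenged genotypes it gave 1 to 4 lower interferon and receptor genes, 1 to 3 higher and 3 to 9 lower induction and signalling genes, and 6 to 9 higher and 6 to 9 lower further interferon-stimulated genes. With challenge it gave, in knockouts and in wild types, 0 to 6 and 1 to 5 higher T and natural killer cell markers, 2 to 4 and 1 to 3 B cell markers, 0 to 4 and 1 to 2 monocyte and macrophage markers, and 8 to 11 and 3 to 9 muscle markers. Over all 17810 tested probes, calls with challenge in knockouts numbered 2954, and 5424 without challenged wild type replicate 4. They numbered 7048 with array weights and 5818 with the compared arrays alone. With challenge in wild types they numbered 5244, and 2084 with the compared arrays alone. Between challenged genotypes they numbered 7879, 3336 with the compared arrays alone and 7616 with cyclic loess. The counts of listed genes are to be read beside these.

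Same-numbered mice of 2 groups deviated together with correlations of -0.09 to 0.32, against means of -0.12 to 0.04 for differently numbered mice. The highest were 0.32 for replicate 4 of the wild type groups, and 0.31 and 0.30 for replicates 1 and 4 of the untreated groups. These values do not settle whether the numbers pair mice, which the labels do not state. With the replicate number as a block, the higher and lower genes were 2 and 2 with challenge in knockouts, 6 and 4 in wild types, 3 and 7 between challenged genotypes, 0 and 0 between untreated genotypes, and 1 and 2 for the interaction. Signal over background limits Isg15, Rtp4, Oas3 and Bst2, which were dim in some mice, and the 5 listed genes too dim to test. It also limits the second probes of Zbp1 and Ifitm1, each above the 40th percentile on 5 arrays. The same holds for the dimmest probe of Irf1, above on 8 arrays, and the second probe of Ifit2, above on 13. The number of arrays, 4 per group, limits the rest.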
